A study of Mus musculus with 12 samples.

Results

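Macrophages grown from mouse bone marrow were compared with and without a conditional deletion of Klf6 after stimulation with tumour necrosis factor (TNF). The samples are 6 of the 12 RNA-seq libraries of the series, 3 from Klf6fl/fl:Lyz2cre cells and 3 from Lyz2cre cells, all given TNF at 10 ng/ml for 6 h, and every gene of the table that holds these libraries was considered (21437 genes, of which 11717 passed the filter on low values). In Klf6fl/fl:Lyz2cre cells, called Klf6-deleted here, Klf6 alleles flanked by loxP sites are cut by a Cre recombinase expressed from the Lyz2 locus, which is active in cells of the myeloid lineage, so deletion depends on how far Cre acted in each culture. The Lyz2cre controls are labelled with the same Cre alone, so both groups carry it. The other 6 libraries, from untreated cells of both genotypes, sit in a table normalized separately and are used only where the genotype effect with TNF is set against that without it. The labels do not say whether libraries of 1 group are from different mice or different cultures, so p-values measure the spread between these libraries, which may be technical.

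KLF6 is a zinc-finger transcription factor that binds GC-rich promoter elements and takes part in inflammatory gene control in macrophages. TNF signals through its receptors to NF-kB and the AP-1 kinases within minutes. Over some hours it also induces interferon beta, which acts back on the cells through the type I interferon receptor, the Janus kinases and a complex of STAT factors with IRF9. This loop drives a large class of antiviral genes, whose promoters often hold the interferon-stimulated response element (ISRE).

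Klf6 itself was measured first. Its normalized reads, which are whole read counts divided by a size factor for each library, were 4211, 4133 and 4139.9 in the Klf6-deleted libraries and 7622, 7155 and 7564 in the Lyz2cre libraries. The groups did not overlap, and Klf6 was 1.79-fold lower in Klf6-deleted cells (log2 change -0.84 ± 0.04 SE, limma, adjusted p = 4.34e-11, 3 libraries a group). Reads summed over the gene cannot show whether the floxed part is gone, and reads of Klf6 remained in every Klf6-deleted library. Lyz2, which encodes lysozyme and whose locus carries Cre in both genotypes, was also lower, at 931 ± 108 against 1656 ± 45.8.

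The libraries held 16.9 to 20.9 M reads in genes, and 17143 to 18341 genes had at least 1 read. Correlations of log2 values over genes were 0.991 to 0.994 between libraries of a genotype and 0.936 to 0.943 between genotypes, and no library stood apart from its group. Reads of mitochondrial genes made up 1.21% to 1.50% of each library. In limma, 6711 of the 11717 genes tested were called at an adjusted p below 0.05, which is 57.3%, with 3103 higher in Klf6-deleted cells (26.5%) and 3608 lower (30.8%). A change of at least 2-fold was called for 953 higher genes (8.13%) and 814 lower genes (6.95%). Counts of list members below stand against these shares. The 2 groups did not overlap for 2978 of the higher and 3482 of the lower genes, so a lack of overlap is usual for a called gene. After normalization the Klf6-deleted libraries summed to 16.4 to 16.5 M and the Lyz2cre libraries to 20.3 to 20.9 M. Scaling each library to its total instead moved the median gene up by 0.33 in log2 units, and 7038 genes were then called higher and 1716 lower, so changes smaller than about that shift depend on the scaling, and the direction under it is given wherever it turned. Under that scaling 1716 of the 3608 lower genes stayed lower. All 3103 higher genes stayed higher, which the upward shift made nearly certain.

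Markers of the cell types that a marrow culture could hold were summed in each library. Macrophage markers made up 1.11% of normalized reads in Klf6-deleted and 1.19% in Lyz2cre cells, with all 13 tested, 6 of them higher and 6 lower. Reads of stromal markers were few but differed between genotypes, at 0.04% against 0.01% on average, and 11 of the 14 tested were higher and 1 was lower. Col1a1, a collagen chain of fibroblasts, was at 1067 ± 75.4 against 104 ± 28.3, and the 1 lower marker was Kitl, at 207 ± 18.0 against 336 ± 1.45. All 3 tested myofibroblast markers were higher, with the smooth muscle actin gene Acta2 at 400.1 ± 20.4 against 63.8 ± 9.82, and 2 of 3 tested B cell markers were higher, with the immunoglobulin heavy chain gene Ighm at 235 ± 26.7 against 32.8 ± 15.4. Of 5 tested monocyte and progenitor markers 1 was higher, Ly6c2, at 435 ± 31.7 against 82.2 ± 18.0, and 2 were lower, Ccr2 and Vcan. Of 3 tested endothelial markers 1 was higher and 2 were lower, at 0.007% against 0.011% of normalized reads. All 3 tested megakaryocyte markers were higher. The 2 tested dendritic cell markers and the 2 tested mast cell and basophil markers were lower. Of 5 tested neutrophil markers 1 was higher and 2 were lower, and of 5 osteoclast markers 2 were higher and 2 lower. Every NK cell and erythroid marker was under the filter on low values. The part of these cells in the gene groups below was not tested, and fewer cells of a type cannot be told apart from less RNA per cell in bulk samples.

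**Figure D1:**
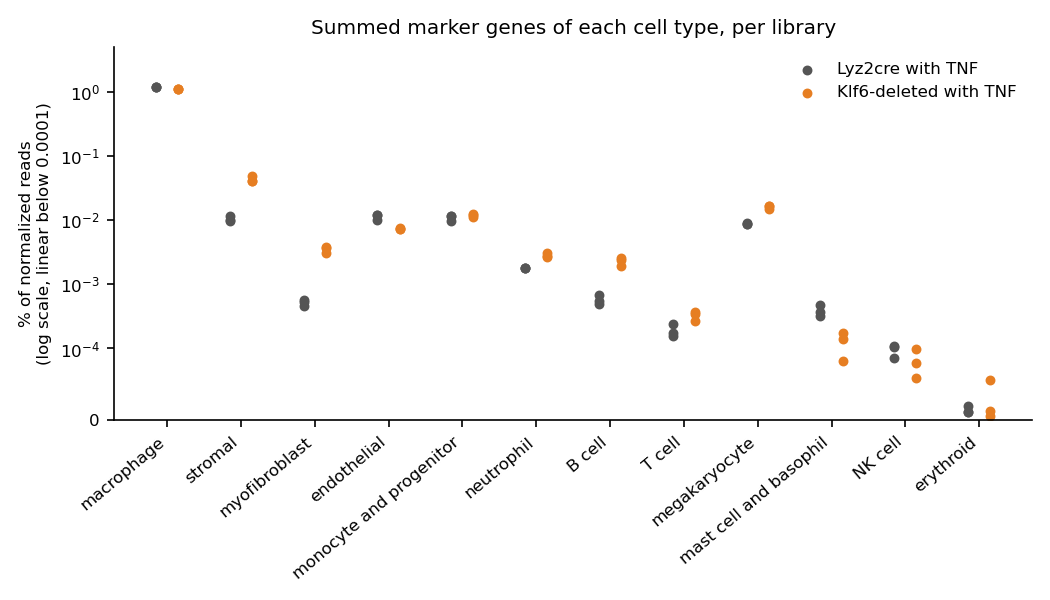
Summed marker genes of each cell type as a percentage of the normalized reads of each library (y axis, log scale, linear below 0.0001), with 3 points for Lyz2cre cells and 3 for Klf6-deleted cells, all with TNF. Macrophage markers sit near 1% in every library, while stromal and myofibroblast markers are higher in all 3 Klf6-deleted libraries.

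In the interferon loop the ligand gene Ifnb1, the kinase gene Tyk2, and some STAT and interferon regulatory factor genes were lower. Of 9 ligand, receptor and kinase genes tested 7 were lower and none higher, or 4 lower and 2 higher scaled to totals. Ifnb1, the gene of interferon beta, had 2 reads in all in the Klf6-deleted libraries and 74 in the Lyz2cre libraries. The ratio is 41.6-fold with an exact 95% interval of 11.1 to 349.6 that covers counting error only. Ifnb1 lay near the filter on low values and could pass it only through the Lyz2cre libraries. Every Lyz2cre library was therefore bound to lie above every Klf6-deleted library. The p-value (limma, adjusted p = 1.40e-05) is no separate support for the difference. The receptor subunit gene Ifnar1 was lower, at 6181 ± 267 against 8371 ± 109.9 (log2 change -0.44), and Ifnar2 was at 2656 ± 75.4 against 3266 ± 74.8, a difference of -0.30 that became 0.03 when libraries were scaled to their totals. Jak2, in the list as a Janus kinase gene but not a kinase of the type I receptor, was lower too. It was at 3287, 3196 and 3393 in the Klf6-deleted libraries and 10530.4, 9548 and 10524 in the Lyz2cre libraries. The groups were far apart, with a 3.10-fold lower level in Klf6-deleted cells (limma, adjusted p = 4.69e-14). Tyk2, the other kinase of the type I receptor besides Jak1, was lower by 0.83, and Jak1 did not pass the test, at 5879.9 ± 317 against 6298 ± 286.

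Of 16 STAT and feedback genes tested, 11 were lower and 2 higher, or 7 lower and 6 higher scaled to totals. Stat2, a factor of the type I interferon receptor that joins IRF9, was at 3009, 3208 and 3139.7 in the Klf6-deleted libraries and 17629, 14696 and 17137 in the Lyz2cre libraries. All 3 Klf6-deleted libraries lay far below the lowest control, 5.27-fold on average (log2 change -2.40 ± 0.06 SE, limma, adjusted p = 4.69e-15). Stat3, the main factor of the interleukin-6 and interleukin-10 receptors, changed by -1.23. The feedback inhibitors were lower too, with log2 changes of -3.38 for Usp18, which blocks the receptor subunit IFNAR2, -2.46 for Socs1 and -1.32 for Socs3. The median of the list was -0.28, against -0.01 over all genes tested, and became 0.05 under scaling to totals.

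Interferon regulatory factors were split. Of 10 tested, 5 were lower and 3 higher (median -0.26, or 0.07 scaled to totals). Irf7, which amplifies interferon production, was at 6809, 7301 and 6712 in the Klf6-deleted libraries and 37351, 28635 and 36636 in the Lyz2cre libraries. The groups did not overlap, and the controls spread more widely than the Klf6-deleted libraries (log2 change -2.29 ± 0.07 SE, limma, adjusted p = 1.98e-13). Irf1 (-1.64), Irf5 (-1.25) and Irf9 (-0.58), the DNA-binding subunit of the STAT complex, were also lower. Irf8, a lineage factor of monocytes and macrophages, moved the other way, at 2080.0, 1959 and 2041 in the Klf6-deleted libraries and 920.1, 1031 and 1022 in the Lyz2cre libraries. The groups did not overlap, and the Klf6-deleted mean was 2.05-fold higher (limma, adjusted p = 2.30e-10). Irf3, the factor that the nucleic acid sensors activate, was higher by 0.26.

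**Figure D2:**
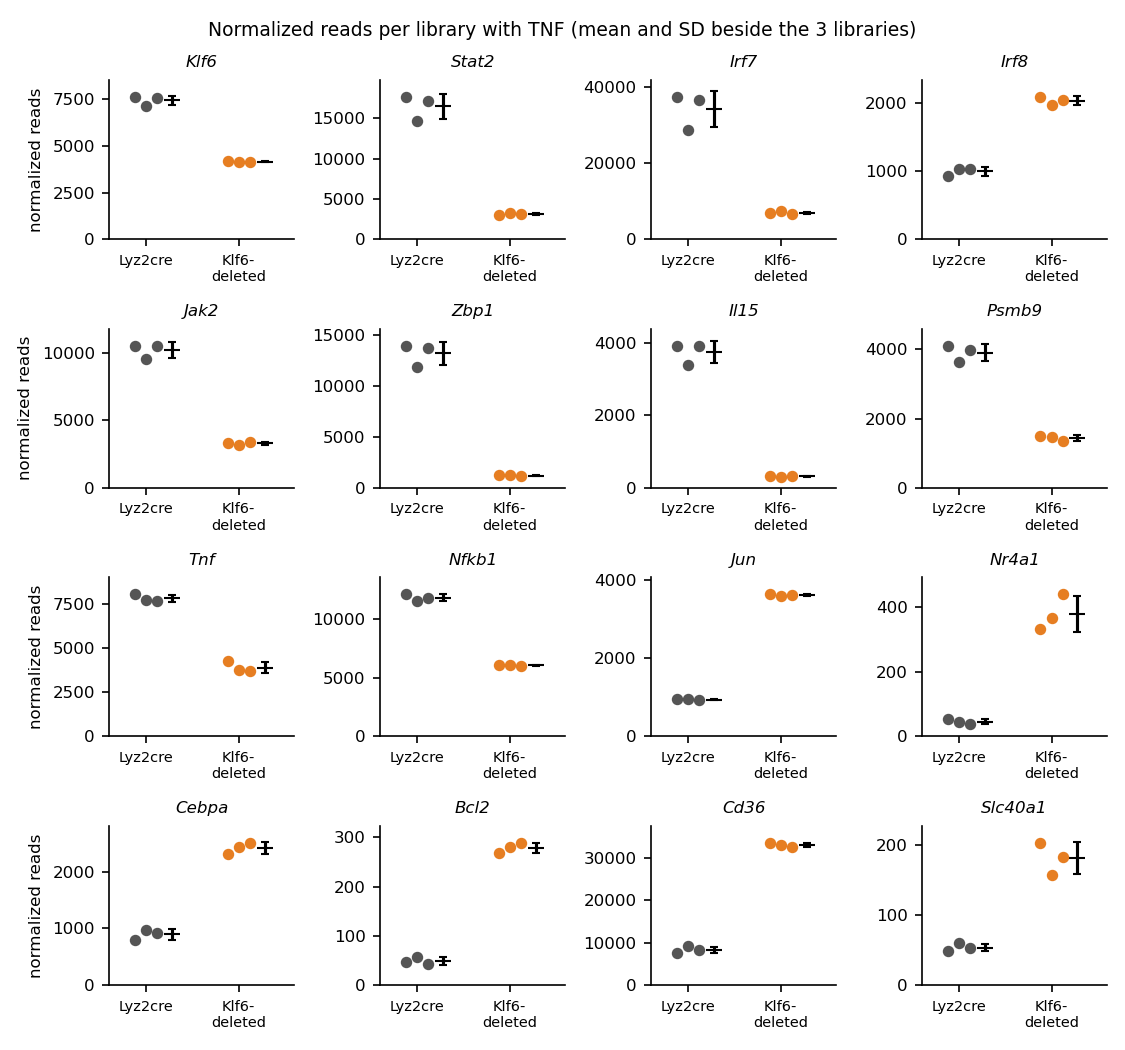
Normalized reads (y axis, from 0) of 16 genes in the 3 Lyz2cre and 3 Klf6-deleted libraries with TNF, with the mean and SD beside the points. Stat2, Irf7, Jak2, Zbp1, Il15 and Psmb9 are low in all 3 Klf6-deleted libraries, and Irf8, Jun, Nr4a1, Cebpa, Bcl2, Cd36 and Slc40a1 are high.

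The effector genes of the interferon response fell together. In the 7 families described next, 122 genes were in the table and 113 were tested, of which 108 were lower and 4 higher, with a median log2 change of -2.45. Together they made up 1.45% ± 0.04 of normalized reads in Klf6-deleted and 5.92% ± 0.38 in Lyz2cre cells (SD, n = 3). All 7 guanylate-binding protein genes tested were lower (median -3.67). These GTPases attack the membranes around intracellular pathogens. Gbp7 was at 332, 338 and 347 in the Klf6-deleted libraries and 7165, 6049 and 6985 in the Lyz2cre libraries. It was 19.8-fold lower, with little spread within each genotype (limma, adjusted p = 2.24e-17). Of 12 immunity-related GTPases, a family with the same targets, 11 were lower (median -3.06), with Tgtp2 at -3.98 and Igtp at -3.53.

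Of 10 Ifit and Ifitm genes, 9 were lower (median -3.21) and none higher. Ifit1, whose protein binds foreign RNA ends, was at 2888, 3065 and 2879 in the Klf6-deleted libraries and 35135, 33667 and 36861 in the Lyz2cre libraries. All 3 Klf6-deleted libraries lay far below the lowest control, 12.0-fold on average (limma, adjusted p = 7.20e-18). Ifitm1 did not pass, at 24.9 against 17.6. Of 10 genes in the oligoadenylate synthetase list, 9 were lower (median -1.78), with Oas3 at 3345 ± 229 against 26876 ± 2135 and Oasl1 at a log2 change of -3.49. All 12 genes of the Ifi200 family were lower (median -2.78), which are sensors and regulators that bind DNA, with Ifi209 at 1865 ± 68.2 against 21827 ± 998. All 8 Schlafen genes were lower (median -2.15), a family that restrains viral translation and cell growth, with Slfn1 at 786 ± 70.2 against 10233 ± 967. Of 54 other antiviral effectors 52 were lower (median -2.27). Isg20, an RNA exonuclease, was at 97.2 ± 6.63 against 1917 ± 364, and Rsad2, which makes a chain-terminating nucleotide, at 2073 ± 118 against 33435 ± 3625. Many genes of these families are near-identical copies, and reads may be split between copies.

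The higher genes included Irgq (0.44), Ifi27 (1.46) and Plscr1 (0.72), named after their values were seen, the values being log2 changes. Scaled to totals, the medians of the 7 families lay between -3.34 and -1.45.

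**Figure D3:**
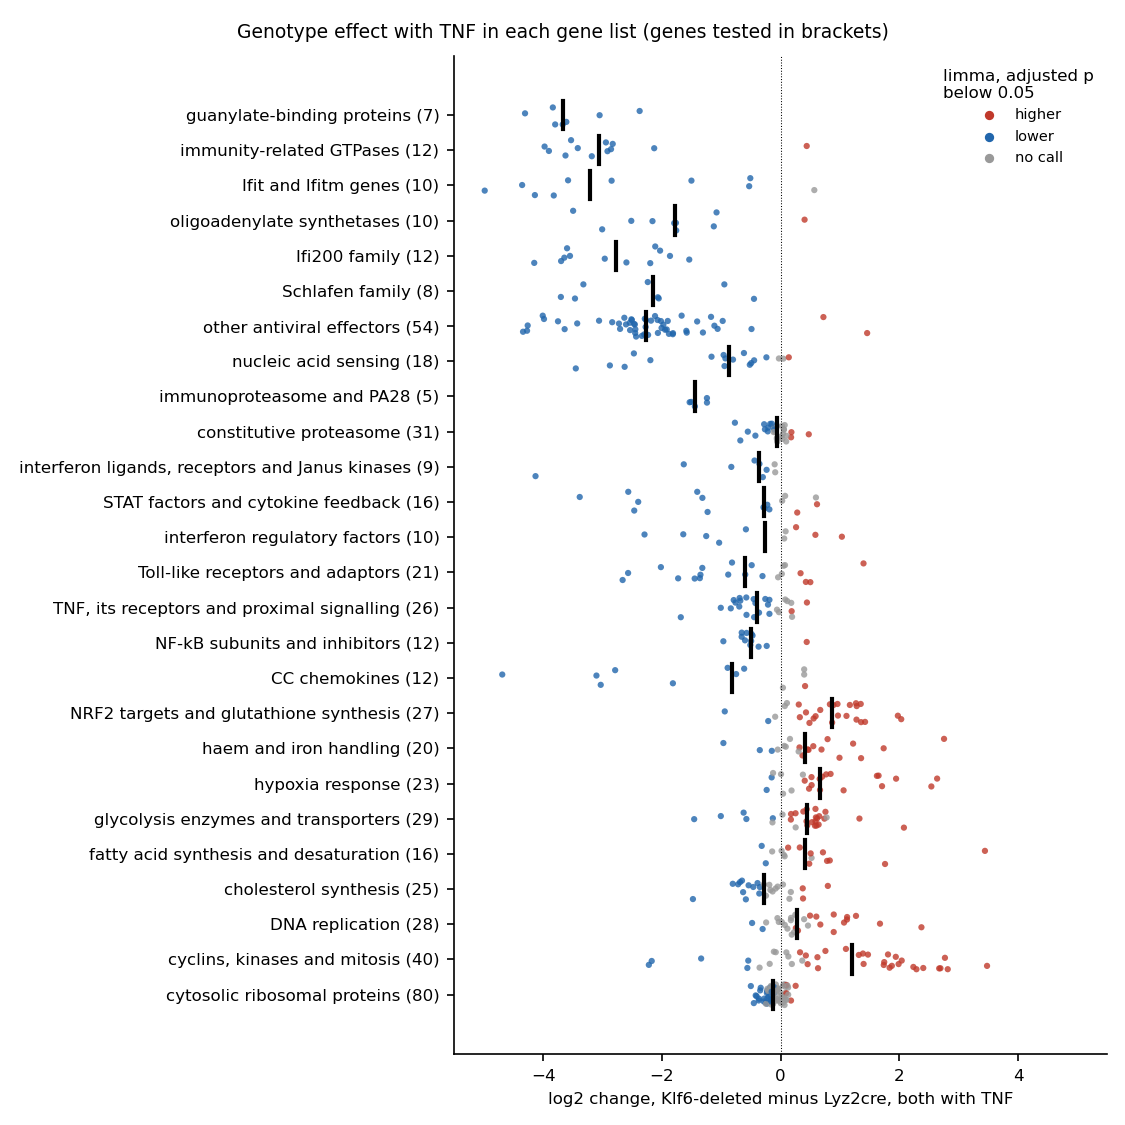
Log2 change between Klf6-deleted and Lyz2cre cells with TNF (x axis) for every gene tested in 26 lists (rows), coloured by the limma call, with a black bar at each list's median. The interferon effector families at the top have medians from -3.67 to -1.78, and the NRF2, haem, hypoxia, glycolysis and cell cycle lists have medians above 0.

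Promoter sequences of several of these genes were looked up in RefSeq (GRCm38.p6) to show where the ISRE lies. The ISRE was searched as GAAANNGAAA on both strands in the 250 bases before each gene start, where 2.98% of all 32851 promoters held it. Only lists with sequence for at least 80% of their tested genes were counted, and over all genes lower by at least 2-fold the share with a sequence was 73.2%, so a comparison of that set is void. The element was found for 6 of 10 Ifit and Ifitm genes, 9 of 11 Ifi200 genes and 3 of 7 Schlafen genes with sequence, and for 0 of 24 NRF2 target genes. A gene counted if any of its promoters held a match, whereas the 2.98% is a share of promoters, so the measures differ. The bases before Ifit1 and Ifit1bl2 overlap on opposite strands, and the same matches count for both genes. Lists with lower genes could also lack it, since it was found for 0 of 5 immunoproteasome genes, 0 of 8 genes of interferon ligands, receptors and kinases, and 1 of 10 interferon regulatory factors. No match was found in the 250 bases for Ifi209 and Slfn1, which are named above. Aim2, Ifit2, Ifitm1, Ifitm3, Ifitm6, Slfn2, Slfn3 and Slfn4 also had none. Below are genes chosen because they hold a match. Their 120 bases before the start are given 5′ to 3′ on the gene's strand, with matches in capitals. These bases show that Ifi206, Ifi208, Ifi213 and Ifi214 hold the same element in a shared stretch, that Ifit1 holds 2 copies and Slfn9 1 copy, these read on the opposite strand.
Ifit1: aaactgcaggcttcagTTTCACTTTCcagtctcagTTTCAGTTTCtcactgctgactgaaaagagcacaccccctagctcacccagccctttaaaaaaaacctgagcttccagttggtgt
Ifi206: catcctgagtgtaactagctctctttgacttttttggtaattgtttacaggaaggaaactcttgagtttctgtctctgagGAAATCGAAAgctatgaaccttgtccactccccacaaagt
Ifi208: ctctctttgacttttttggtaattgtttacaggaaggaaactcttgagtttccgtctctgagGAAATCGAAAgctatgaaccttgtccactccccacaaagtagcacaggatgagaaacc
Ifi213: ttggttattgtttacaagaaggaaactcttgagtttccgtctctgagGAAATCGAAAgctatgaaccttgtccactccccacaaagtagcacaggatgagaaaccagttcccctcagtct
Ifi214: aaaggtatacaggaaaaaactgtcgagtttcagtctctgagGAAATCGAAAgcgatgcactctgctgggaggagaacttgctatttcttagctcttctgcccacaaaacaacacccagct
Slfn9: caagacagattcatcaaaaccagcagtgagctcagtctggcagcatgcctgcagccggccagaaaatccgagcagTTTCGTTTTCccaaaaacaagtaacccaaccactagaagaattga
The Ifit1 bases lie at chr19:34640769-34640888 on the plus strand, those of Ifi206 at chr1:173491319-173491438, Ifi213 at chr1:173599273-173599392 and Ifi214 at chr1:173535958-173536077 on the minus strand, those of Ifi208 at chr1:173673545-173673664 on the plus strand and those of Slfn9 at chr11:82991831-82991950 on the minus strand. Reads of these genes were 385 against 4822 for Ifi206, 168 against 3011 for Ifi208, 396 against 5154 for Ifi213, 13.5 against 167 for Ifi214 and 373 against 4137 for Slfn9, Klf6-deleted against Lyz2cre means. A match is a description of letters in this window and not a site of binding.

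Sensors of nucleic acids were lower in 15 of 18 cases and higher in 1 (median -0.87, or -0.54 scaled to totals). Zbp1, which senses left-handed nucleic acids and can start necroptosis, was at 1214, 1263 and 1139 in the Klf6-deleted libraries and 13965, 11862 and 13783 in the Lyz2cre libraries, and the groups were far apart. The RNA helicase sensors Ifih1 and Ddx58 had log2 changes of -2.88 and -2.63. Of 21 Toll-like receptors and adaptors, 13 were lower and 4 higher (median -0.59), or 12 lower and 8 higher scaled to totals (median -0.27). The endosomal receptors Tlr9, at 111 ± 12.2 against 455 ± 82.1, and Tlr8, at 1741 ± 109 against 5752 ± 171, were lower, as was the adaptor Myd88 (-1.35). Tlr4, the receptor for lipopolysaccharide, did not pass the test, at 1744 ± 27.8 against 1797 ± 112, and its co-receptor Cd14 was higher by 0.50. Siglec1, a surface lectin of macrophages that is induced by type I interferon, was at 5665 ± 418 against 29063 ± 3519.

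The proteasome separated by subunit type. All 5 genes of the immunoproteasome and its PA28 cap, which cut proteins into peptides for class I presentation, were lower (median -1.44), while the 31 constitutive subunits had 11 lower and 3 higher (median -0.06). Psmb9 was at 1482, 1480.3 and 1347 in the Klf6-deleted libraries and 4106, 3642 and 3977 in the Lyz2cre libraries, with no overlap. Psmb8 changed by -1.24 and Psmb10 by -1.53. Among the constitutive subunits, Psma5 was lower by 0.77 and Psmd8 higher by 0.48. Scaled to totals all 5 immunoproteasome genes stayed lower, whereas 24 constitutive genes were higher and 3 lower (median 0.27).

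Among cytokine genes, Il15 and its trans-presenting receptor Il15ra, which support NK cells and memory T cells, were both lower. Il15 was at 322, 299.9 and 318 in the Klf6-deleted libraries and 3922, 3394 and 3914 in the Lyz2cre libraries. All 3 Klf6-deleted libraries lay far below the controls (log2 change -3.57 ± 0.07 SE, limma, adjusted p = 2.53e-16). Il15ra was at 177 ± 10.9 against 1931 ± 292 and Il27, a cytokine gene whose product acts on T cells, at 42.4 ± 5.12 against 396 ± 68.7. Of 26 tested genes in the list of other cytokines and receptors, 16 were lower and 7 higher (median -0.46), or 12 lower and 9 higher scaled to totals (median -0.14). In the interleukin-1 family, Il1rn, which encodes the receptor antagonist, was at 1401 ± 88.6 against 7349 ± 598 and Il18 at 101 ± 18.5 against 360.1 ± 20.3, while Il1b was higher at 177 ± 8.01 against 104 ± 23.7. Csf1, the macrophage growth factor, did not pass, at 612 ± 69.9 against 729 ± 119.5. The inhibitory ligand Lgals9 and the T cell co-stimulators Tnfsf4 and Icosl had log2 changes of -2.71, -3.65 and -1.63, and Cd274, which encodes PD-L1, changed by -1.10. Cd80 went up, from 37.0 ± 7.75 in Lyz2cre to 71.6 ± 3.90 in Klf6-deleted cells.

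Of 12 CC chemokines tested, 8 were lower and 1 higher (median -0.82), or 8 lower and 4 higher scaled to totals (median -0.49). Ccl9, a ligand of CCR1, was at 22608, 22052 and 21024 in the Klf6-deleted libraries and 76984, 75832 and 77989 in the Lyz2cre libraries, with no overlap between genotypes. Ccl22, which attracts regulatory T cells, was at 131 ± 12.1 against 913 ± 92.8. Of 12 CXC chemokines 5 were lower and 5 higher (median -0.01, or 0.32 scaled to totals). Cxcl9, a ligand of CXCR3, was lower at 30.5 ± 9.40 against 176 ± 25.0. Among the ligands that attract neutrophils, Cxcl5 was higher at 61.7 ± 9.92 against 9.79 ± 0.995. It was under the filter on low values in every Lyz2cre library and passed through the Klf6-deleted libraries alone. That favours a higher level there, so the call is no separate support. Cxcl1 did not pass, at 272 ± 15.9 against 248 ± 3.24, and Cxcl2 was lower by 0.23, a difference that became 0.09 scaled to totals.

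In the TNF pathway itself the counts depended on the scaling. Of 26 genes for TNF, its receptors and proximal signalling, 18 were lower and 2 higher (median -0.39), or 11 lower and 10 higher scaled to totals (median -0.07). Tnf was at 4257, 3754 and 3716 in the Klf6-deleted libraries and 8077, 7727 and 7721 in the Lyz2cre libraries. The groups did not overlap and Tnf was 2.01-fold lower (limma, adjusted p = 6.31e-11). The receptor gene Tnfrsf1a was lower by 0.79, and Tnfrsf1b, the other receptor, did not pass, at 61939.9 ± 552 against 63102 ± 788. Rnf31, the catalytic subunit of the linear ubiquitin ligase at the receptor, was at 1396 ± 128 against 4483 ± 499.7. Of 12 NF-kB subunits and inhibitors 11 were lower and 1 higher, by small amounts (median -0.50, or -0.17 scaled to totals). Nfkb1 was at 6121, 6063 and 6019.8 in the Klf6-deleted libraries and 12116, 11549 and 11838 in the Lyz2cre libraries, a 1.95-fold difference with no overlap. Rela was lower by 0.23, and higher by 0.09 scaled to totals, and the inhibitor genes Nfkbia and Tnfaip3 changed by -0.47 and -0.76. Zfp36, which destabilises cytokine mRNA, was at 3240.5 ± 117 against 8336 ± 307.

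Among the AP-1 and ATF factors 8 of 19 were higher and 9 lower. Jun, the core AP-1 subunit, was at 3629, 3590.3 and 3610.1 in the Klf6-deleted libraries and 943, 965 and 917 in the Lyz2cre libraries. Its libraries were tightly grouped and 3.83-fold higher in Klf6-deleted cells (limma, adjusted p = 7.52e-15). Fosl1 rose from 25.3 ± 1.45 in Lyz2cre to 106 ± 10.9 in Klf6-deleted cells and Atf3 by 0.88. Junb was lower by 0.71, and Batf2 (-2.54) and Jdp2 (-1.96) were lower as well. Of the MAP kinase phosphatases, Dusp3 (1.64) and Dusp4 (0.87) were higher and Dusp5 (-1.46) lower.

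Transcription factors of other families also changed. Nr4a1, an orphan nuclear receptor and immediate early gene that restrains macrophage inflammation, was at 332, 368 and 440.3 in the Klf6-deleted libraries and 54.7, 44.3 and 39.0 in the Lyz2cre libraries. Every Klf6-deleted library was far above the highest control, and the gene was 8.13-fold higher (limma, adjusted p = 9.53e-11). Ppard was higher by 1.10. Within the Kruppel-like family, Klf9 was at 178 ± 22.5 against 49.9 ± 4.96 and Klf11 was higher by 0.80, and Klf4 did not pass, at 687 ± 55.6 against 617 ± 31.5. Of 21 macrophage lineage factors and receptors 10 were higher and 11 lower (median -0.20, or 0.13 scaled to totals). Cebpa, a factor of early myeloid differentiation, was at 2313, 2439.9 and 2509 in the Klf6-deleted libraries and 792, 980.1 and 914 in the Lyz2cre libraries, with no overlap. Runx3 rose from 10.7 ± 6.27 in Lyz2cre to 74.3 ± 2.97 in Klf6-deleted cells. It passed the filter on low values through the Klf6-deleted libraries alone, which favours a higher level there, so its call is no separate support. Id2 rose by 1.13, while Maf (-1.39), Spi1 (-0.60), which encodes PU.1, and Csf1r (-0.61) were lower. The survival gene Bcl2 was at 268, 279.9 and 289 in the Klf6-deleted libraries and 45.8, 57.7 and 42.4 in the Lyz2cre libraries, and no Klf6-deleted library came near the controls. The inflammasome caspase gene Casp1 (-1.56), Gsdmd (-1.26), whose product forms the pore of pyroptosis, and Nlrp3 (-0.80) were lower, with 13 of 17 inflammasome and pyroptosis genes lower and 1 higher (median -0.45), or 8 lower and 4 higher scaled to totals (median -0.12).

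Genes of redox defence and iron handling rose in Klf6-deleted cells, beside the higher stromal markers. Of 27 NRF2 targets and glutathione genes tested, 22 were higher and 2 lower (median 0.87), although Nfe2l2, which encodes NRF2, was at 9501 ± 81.4 against 10975 ± 306, a log2 change of -0.21 that became 0.12 scaled to totals. The glutathione transferase genes Gsta3, at 180.4 ± 23.3 against 43.1 ± 2.78, and Gstp1 (1.42) were among the higher ones. Of 20 haem and iron genes 12 were higher and 3 lower (median 0.41, or 0.74 scaled to totals). Slc40a1, the iron exporter ferroportin, was at 204, 158 and 184 in the Klf6-deleted libraries and 48.7, 59.7 and 52.7 in the Lyz2cre libraries. Even the lowest Klf6-deleted library was far above the highest control (3.33-fold on average, limma, adjusted p = 1.36e-07). The transferrin receptor gene Tfrc was 2.33-fold higher and Hp, the haptoglobin gene, was at 1277 ± 94.4 against 188 ± 4.45.

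Glycolysis and hypoxia genes were higher for the most part. Of 29 glycolysis enzymes and transporters 20 were higher and 5 lower (median 0.45, or 0.78 scaled to totals). The enolase gene Eno2 rose from 82.7 ± 25.9 in Lyz2cre to 339 ± 11.9 in Klf6-deleted cells and Ldha, which makes lactate, by 0.38, while the transporter Slc2a6 fell by 1.46. Of 23 hypoxia response genes 16 were higher and 2 lower (median 0.66, or 0.99 scaled to totals), with the collagen prolyl hydroxylase P4ha2 at 385 ± 34.3 against 61.0 ± 5.14. Hif1a, the oxygen-sensitive factor itself, changed by -0.15 and by 0.18 scaled to totals.

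The series concerns atherogenesis, in which macrophages take up lipid, and lipid genes moved in both directions. Cd36, the receptor for oxidised low-density lipoprotein, was at 33567, 32960.3 and 32543 in the Klf6-deleted libraries and 7677, 9113 and 8158 in the Lyz2cre libraries, and the groups were far apart (3.98-fold, limma, adjusted p = 1.22e-14). Marco (1.91) and Lrp1 (0.83) were higher and Msr1, the class A scavenger receptor, was lower by 0.79, so that 5 of 14 scavenger receptors were higher and 7 lower (median -0.12, or 0.21 scaled to totals). Of 16 fatty acid synthesis genes 9 were higher and 2 lower (median 0.40, or 0.73 scaled to totals and 0.10 for members with at least 10 CPM in 3 libraries), with Fasn higher by 0.71, and the lipid droplet gene Hilpda was at 261 ± 26.1 against 80.1 ± 12.8. Cholesterol synthesis went the other way, with 12 of 25 lower and 3 higher (median -0.28, or 0.04 scaled to totals). Srebf2, which encodes the main factor that induces these genes, was lower by 0.81. Apoe (-0.58) and the lysosomal cholesterol carrier Npc2 (-1.10) were lower, and the efflux pump Abcg1 was higher by 0.43.

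Proliferation genes were higher at low levels. Of 40 cyclins, kinases and mitosis genes 27 were higher and 5 lower (median 1.21). The median fell to -0.08 when only members with at least 10 CPM in 3 libraries were kept. Ccnb1 was at 77.9 ± 16.7 against 12.1 ± 5.93 and the ribonucleotide reductase subunit Rrm2 at 75.3 ± 16.0 against 13.9 ± 4.33. Both genes were under the filter on low values in every Lyz2cre library and passed through the Klf6-deleted libraries alone. That favours a higher level there, so their calls are no separate support. Of 28 DNA replication genes 13 were higher and 2 lower (median 0.28, or 0.60 scaled to totals). Cdkn1a, which encodes the cyclin-dependent kinase inhibitor p21, was lower, at 4974, 5463 and 5114 in the Klf6-deleted libraries and 25436, 22309 and 24715 in the Lyz2cre libraries, with no overlap. Mki67, a marker of cycling cells, did not pass, at 586 ± 88.1 against 662 ± 53.1. Stromal markers rose in the same libraries, and their part in these low levels was not tested. Of 80 cytosolic ribosomal protein genes 30 were lower and 4 higher (median -0.13), whereas scaled to totals 52 were higher and 0 lower (median 0.20).

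Secreted and surface factors of vessel and matrix biology changed in both directions, beside the higher stromal and myofibroblast markers and the lower share of endothelial markers. Flt1, the VEGF receptor 1, was at 5.60, 8.18 and 20.4 in the Klf6-deleted libraries and 283, 246 and 312 in the Lyz2cre libraries. The groups did not overlap (limma, adjusted p = 3.37e-09). Kdr, which is also one of the endothelial markers, was lower by 1.88. The macrophage elastase gene Mmp12 was at 2283, 2219.9 and 2239 in the Klf6-deleted libraries and 571, 595 and 624 in the Lyz2cre libraries, with every Klf6-deleted library above every control, while Mmp9 (-1.74) and Mmp14 (-1.31) were lower. Fn1, the fibronectin gene, rose from 869 ± 22.8 in Lyz2cre to 2894 ± 299.7 in Klf6-deleted cells. Ltc4s, the synthase of leukotriene C4, rose from 11.7 ± 4.43 in Lyz2cre to 173 ± 23.7 in Klf6-deleted cells. It passed the filter on low values through the Klf6-deleted libraries alone, which favours a higher level there, so its call is no separate support. On the prostaglandin side Ptgs2 (-1.14) and Ptges (-1.48) were lower. The complement genes C1qa (-1.18) and C3 (-1.52) and the integrin Itga4 (-1.42) were lower.

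The genotype effect with TNF was set against the effect in untreated cells, whose libraries are not shared with it. The 2 effects differed in 6392 of 13062 genes (limma, adjusted p below 0.05), which is 48.9%. Of the 110 interferon effector genes tested in both tables, 103 had a lower effect with TNF than without. Without TNF 79 of them were higher and 11 lower in Klf6-deleted cells, with a median of 0.34, against -2.40 with TNF. Cell type markers moved too, since without TNF 11 of 13 macrophage markers were lower (median -1.07) and 14 of 14 stromal markers higher (median 3.80). The difference was called for 11 macrophage markers, 10 of them with a higher effect with TNF, and for 13 stromal markers, all with a lower one, and their part in the comparison was not tested. Stat2 changed by 1.07 without TNF and -2.40 with it, and Irf7 by 1.17 and -2.29. For Slc40a1 the order was reversed, at -2.22 without and 1.74 with TNF. Of 46 genes of NRF2 targets, haem and iron, 36 had a higher effect with TNF, where 17 were higher and 21 lower without it. Among all genes called with TNF, 788 were lower with TNF and higher without it, and 747 the reverse, with the difference called. For Hp the difference did not pass the test, with effects of 2.94 without and 2.75 with TNF (difference -0.19, limma, adjusted p = 0.249).

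**Figure D4:**
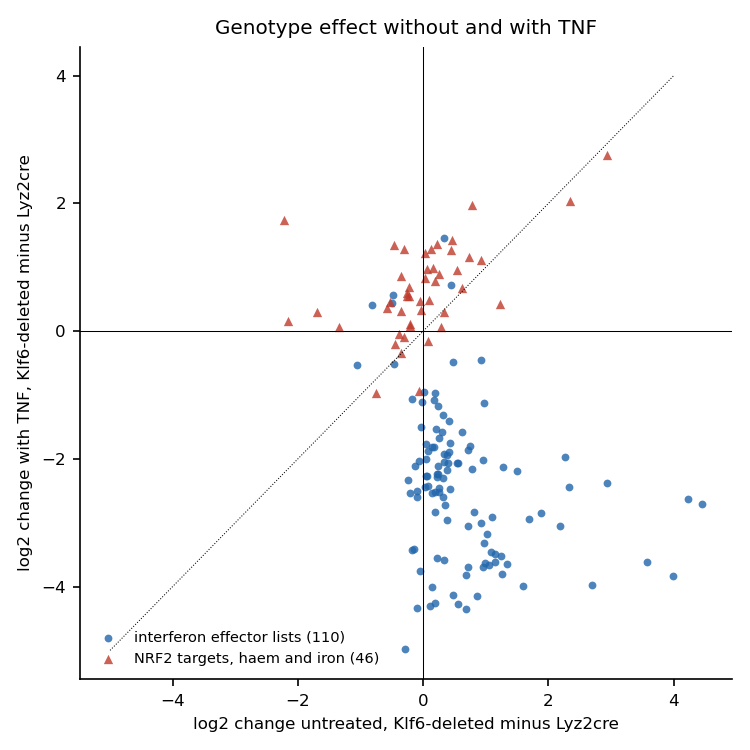
Log2 change between Klf6-deleted and Lyz2cre cells without TNF (x axis) and with TNF (y axis) for 110 interferon effector genes and 46 NRF2, haem and iron genes, with a dotted line of equal change. Most interferon effector genes lie to the right of 0 and far below it, while 36 of the 46 NRF2, haem and iron genes had a higher effect with TNF.

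Genes near Klf6 on chromosome 13 were counted because a floxed allele carries flanking DNA with it, whose part in the results was not tested. Of 18 tested within 5 Mb by the GENCODE M21 annotation (GRCm38), 13 were lower and 1 higher, with a median of -0.53, and 3 of them changed by at least 2-fold.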

How the data were processed

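Total RNA from 6 TNF-treated and 6 untreated libraries was made into rRNA-depleted stranded libraries, per the labels. The deposited signal values are the authors' normalized reads. In every library all values (100.0%, tolerance 0.001 reads) are whole reads divided by 1 factor, so reads were recovered. Cufflinks and the builds GRCm39 and mm10 are named without a role, per the submitters' processing notes, while for the aligner and counter the tool is not given in the sources used here. Symbols matched 21411 of 21437 gene IDs. Genes with at least 1 CPM in 3 of 6 libraries were tested with limma 3.58.1 (trend) on log2(value + 1), so fold changes of low genes are understated, with Benjamini-Hochberg adjustment and a threshold of 0.05. A scarce gene could pass this filter through 1 group alone, which favours a difference between the groups. edgeR 4.0.16 on the recovered reads called 3428 genes higher and 3279 lower, and DESeq2 1.42.0 was another alternative. Differences from untreated cells came from 1 limma fit over 12 libraries. The fit was tested on simulated data. Lists and members were chosen with earlier results of these data known, and are described without set tests. Named genes, of which the text gives those with known roles, were Klf6, Lyz2, list anchors, up to 5 called members of each list with the largest change, cell type markers and the 15 highest and 15 lowest genes. Promoters are RefSeq's (GRCm38.p6), found for 8975 of the 11717 genes tested. Alternatives were other tools, scalings, pseudocount 5, filters, thresholds, 1 library left out and a replicate block. Motifs were searched with Python 3.11.15. Some genes of the lists count in the totals and are not reported here by name.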

Additional observations from a re-analysis of the deposited data

Results flagged for a closer look

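The genotype effect with TNF differed from the effect without TNF, by a test of the difference itself in limma over all 12 libraries, for Klf6 and for 7 of 8 genes, each the member of largest change with TNF in its list. That choice favours a large difference, and 48.9% of all genes tested passed, so the count is a description only. Values are log2 differences, TNF minus untreated. Klf6 differed by -0.33 (adjusted p = 3.25e-05), being lower by 0.84 with TNF and by 0.51 without. That difference is about the size of the 0.33 by which scaling to totals moved the median gene with TNF, so it may depend on the scaling. Under that scaling Klf6 changed by -0.51 with TNF, and its untreated value under it is not given here. Irf7 differed by -3.46, Gbp7 by -4.41 and Ifit1bl1 by -4.70. The chemokine Cxcl11 differed by -6.27, with a change of -6.34 with TNF and -0.06 without. Its SE of 0.74 was the largest among these genes. Its reads are not given here, so too few reads without TNF cannot be told apart from no genotype effect. Eno2 (0.81), Rrm2 (0.88) and Scd2 (2.48) had larger positive effects with TNF. Their lists did not all follow, since of 29 glycolysis genes 18 had a lower and 5 a higher effect with TNF, of 28 DNA replication genes 10 and 3, and of 16 fatty acid synthesis genes 1 and 6. For Cd74, of class II presentation, the difference of -0.01 did not pass (adjusted p = 0.931).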

How the results depend on the processing

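The number of higher genes was 3103 and of lower genes 3608. Scaled to total reads they were 7038 and 1716, with at least 10 CPM in 3 libraries 1943 genes were higher (fewer genes were tested), and with at least 2-fold change 953 and 814. edgeR gave 3428 and 3279 and DESeq2 3024 and 3244. Leaving out each library in turn gave 2710 to 3058 higher and 3275 to 3561 lower genes, and Klf6 stayed between -0.87 and -0.82. Klf6 is under 2-fold, at -0.84. The replicate numbers do not pair the samples (r = -0.021, -0.012 and -0.029 between the deviations of same-numbered libraries). With a replicate block, 2988 genes were higher and 3485 lower, and 6201 genes differed between the treated and untreated effects, against 6392 without it and 5926 to 6437 with 1 of 12 libraries left out.

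Of 144 named genes under up to 16 alternatives each, 2229 of 2289 results kept direction and side of the threshold. The sign turned when scaled to total reads for Ifnar2 (0.029), Jak1 (0.23), Tlr4 (0.29), Csf1 (0.083), Tnfrsf1b (0.30), Rela (0.094), Cxcl2 (0.094), Nfe2l2 (0.12), Hif1a (0.18) and Mki67 (0.14), and for Tnfrsf1b also in edgeR (0.0088) and with TMM in limma (0.0089). Medians that turned under that scaling were those of STAT factors (0.048), interferon regulatory factors (0.067), the constitutive proteasome (0.27), CXC chemokines (0.32), cholesterol synthesis (0.041), scavenger receptors (0.21), ribosomal proteins (0.20) and macrophage lineage factors (0.13). With the stricter filter the medians of AP-1 factors (-0.22), cyclins and mitosis genes (-0.081) and macrophage markers (-0.21) turned, and without a filter those of scavenger receptors (0.10) and lineage factors (0.0026). The CXC median was 0.029 in edgeR, 0.014 in DESeq2 and 0.028 with TMM in limma, and -0.031 to 0.031 with 1 library left out, turning without Klf6-deleted replicate 3 and without Lyz2cre replicate 2. The macrophage marker median was -0.18 without Klf6-deleted replicate 3 and 0.029 without Lyz2cre replicate 1, against 0.16. The median of AP-1 factors was 0.10 without Klf6-deleted replicate 2 and 0.12 without Lyz2cre replicate 3, against 0.20, and without Klf6-deleted replicate 3 those of scavenger receptors and ribosomal proteins were -0.25 and -0.053. Without a filter the median of interferon regulatory factors was -0.46, and with the stricter filter that of scavenger receptors was -0.49. For Cd74 the difference between effects, which did not pass, was 0.19 scaled to totals and -0.079 to 0.036 with 1 of 12 libraries left out. The shorter promoter window held an ISRE in 4 Ifit and Ifitm, 8 Ifi200 and 2 Schlafen genes. The cause was not tested. Reads of scarce genes limit precision: Ifnb1 rests on 2 reads in Klf6-deleted cells.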
